A study of Homo sapiens with 10 samples.

Results

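The regions described here are those that the deposited annotation assigned to 5 genes of the ETS family of transcription factors: ELF3, EHF, ETS1, ETS2 and ELK3. They were taken by gene symbol and comprised 102 of 67387 annotated regions, out of 169637 regions counted in all. ELF3 had 28 regions, EHF 9, ETS1 36, ETS2 16 and ELK3 13. The measurement was H3K27ac, the acetylation of lysine 27 on histone H3, read by ChIP-seq (sequencing of DNA bound in an immunoprecipitate of chromatin). The cells were H1975, an established line from a human lung adenocarcinoma with a mutant EGFR. In the group DMSO, cells grew without drug for 21 days and then received DMSO, the solvent control, for 3 days. In the group osi_DTP, cells were kept for 24 days in 500 nM osimertinib, an EGFR inhibitor, and the cells that remained were called drug tolerant persisters (DTP). In the group osi_DTP_AZD5153, 21 days in 500 nM osimertinib were followed by 3 days in 150 nM AZD5153. Each group had 3 biological replicates of this 1 line, and 1 input library was pooled from chromatin that had not been immunoprecipitated.

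ETS factors share a DNA-binding domain that recognises a GGAA core, and differ in the cells that make them and in the proteins they bind. ELF3 and EHF are made mainly in epithelia, where they take part in differentiation. ETS1 and ETS2 occur in many cell types and are phosphorylated through the Ras and MAP kinase pathway downstream of receptors such as EGFR. ELK3 belongs to the ternary complex factors, which bind with serum response factor and can act as repressors. H3K27ac is found at active promoters and enhancers, so the values below describe the chromatin of these genes and not their RNA or protein.

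The 250 bases before the annotated start of 3 members are shown because the changes at these genes lay on different sides of the start. They come from RefSeq on GRCh38.p14, read 5′ to 3′ along the gene, and capitals mark the core GGAA on either strand (GGAA or TTCC) and the sequence TATAAA.
ELF3, chr1:202010337-202010586, plus strand: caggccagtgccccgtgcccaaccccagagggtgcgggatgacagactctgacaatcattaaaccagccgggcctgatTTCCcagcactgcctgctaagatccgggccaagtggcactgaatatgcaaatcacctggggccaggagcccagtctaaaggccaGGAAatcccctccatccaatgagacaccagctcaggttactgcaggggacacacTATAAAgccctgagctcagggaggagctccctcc
ETS2, chr21:38804933-38805182, plus strand: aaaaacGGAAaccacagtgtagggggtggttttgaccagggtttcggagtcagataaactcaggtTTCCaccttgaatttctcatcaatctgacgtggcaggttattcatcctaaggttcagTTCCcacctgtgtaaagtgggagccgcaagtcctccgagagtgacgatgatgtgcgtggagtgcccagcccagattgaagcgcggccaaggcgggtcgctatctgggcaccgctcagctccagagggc
ELK3, chr12:96194125-96194374, plus strand: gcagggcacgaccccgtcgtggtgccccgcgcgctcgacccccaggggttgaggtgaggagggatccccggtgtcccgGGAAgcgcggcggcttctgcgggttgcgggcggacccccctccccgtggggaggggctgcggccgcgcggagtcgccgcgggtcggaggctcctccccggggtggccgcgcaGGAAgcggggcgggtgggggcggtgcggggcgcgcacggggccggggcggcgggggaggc
No annotated region overlapped the ELF3 sequence, ETS2 region 7 overlapped the ETS2 sequence, and ELK3 regions 3 and 4 overlapped the ELK3 sequence. GC content was 58.4% for ELF3, 54.4% for ETS2 and 82.0% for ELK3. Only the ELF3 sequence of these 3 held TATAAA, at position -34 from the start. GGAA occurred in 95.45% of all 34943 RefSeq promoters of 300 bases and TATAAA in 11.57%, both strands searched. These 2 motifs were chosen after the sequences had been read. None of the 3 windows held the longer ETS site CCGGAAG, the AP-1 site TGANTCA, the TEAD site GGAATG or the cyclic AMP response element TGACGTCA, which occurred in 10.21%, 7.724%, 14.04% and 1.837% of all RefSeq promoters. GGAATG and CCGGAAG both contain the GGAA core.

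The total count per H3K27ac library lay between 6263443 and 10463351. Levels are given as CPM, the count relative to the library total, after scaling by the trimmed mean of M values (TMM), and all regions were 502 bp wide. The Spearman correlation across regions was 0.818 to 0.898 between replicates of DMSO and osi_DTP. In osi_DTP_AZD5153, replicates 1 and 2 had 0.89, whereas replicate 3 had 0.43 and 0.354 with them. That library was also the shallowest, and 66.7% of its counts in annotated regions fell in promoters. The promoter share was 59.8% in osi_DTP replicate 2 and 40.3% to 45.9% in the other 7 libraries. Results are therefore given with and without osi_DTP_AZD5153 replicate 3, and whether the promoter share contributed to a level was not tested. The promoter regions of all 6 epithelial markers (EPCAM, KRT8, KRT18, KRT19, CDH1 and MUC1) were present, with a summed level of 1184 to 1409 CPM in DMSO, 1159 to 1762 CPM in osi_DTP and 1024 to 1240 CPM in osi_DTP_AZD5153.

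All 102 member regions passed the filter on low counts. A region was called when its adjusted p was under 0.05 by edgeR's quasi-likelihood test, with Benjamini-Hochberg adjustment over the 157919 regions tested. Between osi_DTP and DMSO, 6 member regions rose, all of them at ELF3, and 2 fell, both at ETS2. The 6 regions made up 5.88% of the members, against 5.58% of all regions called higher, and the 2 regions 1.96%, against 5.13% called lower. Between osi_DTP_AZD5153 and DMSO, 10 member regions rose (9.8%, against 9.05% of all regions), 3 at ELF3 and 7 at ETS1. The 3 that fell (2.94%, against 9.01%) were all at ETS2. Of the 67387 annotated regions, 6.98% were called higher and 7.22% lower in osi_DTP, and 10.7% and 11.1% in osi_DTP_AZD5153. Over both classes, the share of members that rose was thus near the background in both comparisons. By class the shares departed from it. Of the 18 promoter regions, 4 rose in each group (22.2%, against 2.78% of annotated promoter regions in osi_DTP and 5.33% in osi_DTP_AZD5153). The 4 in osi_DTP were neighbours at ELF3. Of the 84 distal regions, 2.38% and 7.14% rose, against 9.35% and 13.8%. Promoter regions that fell made up 5.56% and 11.1%, against 1.85% and 3.18%, and distal ones 1.19% in each, against 10.2% and 15.5%. No region of EHF or ELK3 was called. The median log2 fold change of the 102 regions was 0.22 in osi_DTP and 0.11 in osi_DTP_AZD5153 relative to DMSO, beside 0.15 and 0.23 over all regions. Both comparisons use the same DMSO libraries.

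Without osi_DTP_AZD5153 replicate 3, more regions were called throughout the table. In osi_DTP, 23 member regions were then higher, against 14.2% of all regions, and 4 lower, against 12.7%. The 23 comprised 11 at ELF3, 11 at ETS1 and ELK3 region 1, and the 4 were all at ETS2. In osi_DTP_AZD5153, 20 were higher, against 18.4% of all regions, and 12 lower, against 17.3%. Of the 20, 11 were at ETS1, 7 at ELF3, and the others were EHF region 8 and ELK3 region 1. Of the 12, 5 were at ETS2, 4 at ELK3, 2 at ETS1 and 1 at ELF3. EHF region 8 had a log2 fold change of 1.30 there (adjusted p = 0.0285). ELK3 region 1, chr12:96136311-96136812 upstream of the gene, had 1.84 in osi_DTP (adjusted p = 0.00344), with 1.39 to 1.84 CPM in DMSO and 4.65 to 8.26 CPM in osi_DTP.

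**Figure D1:**
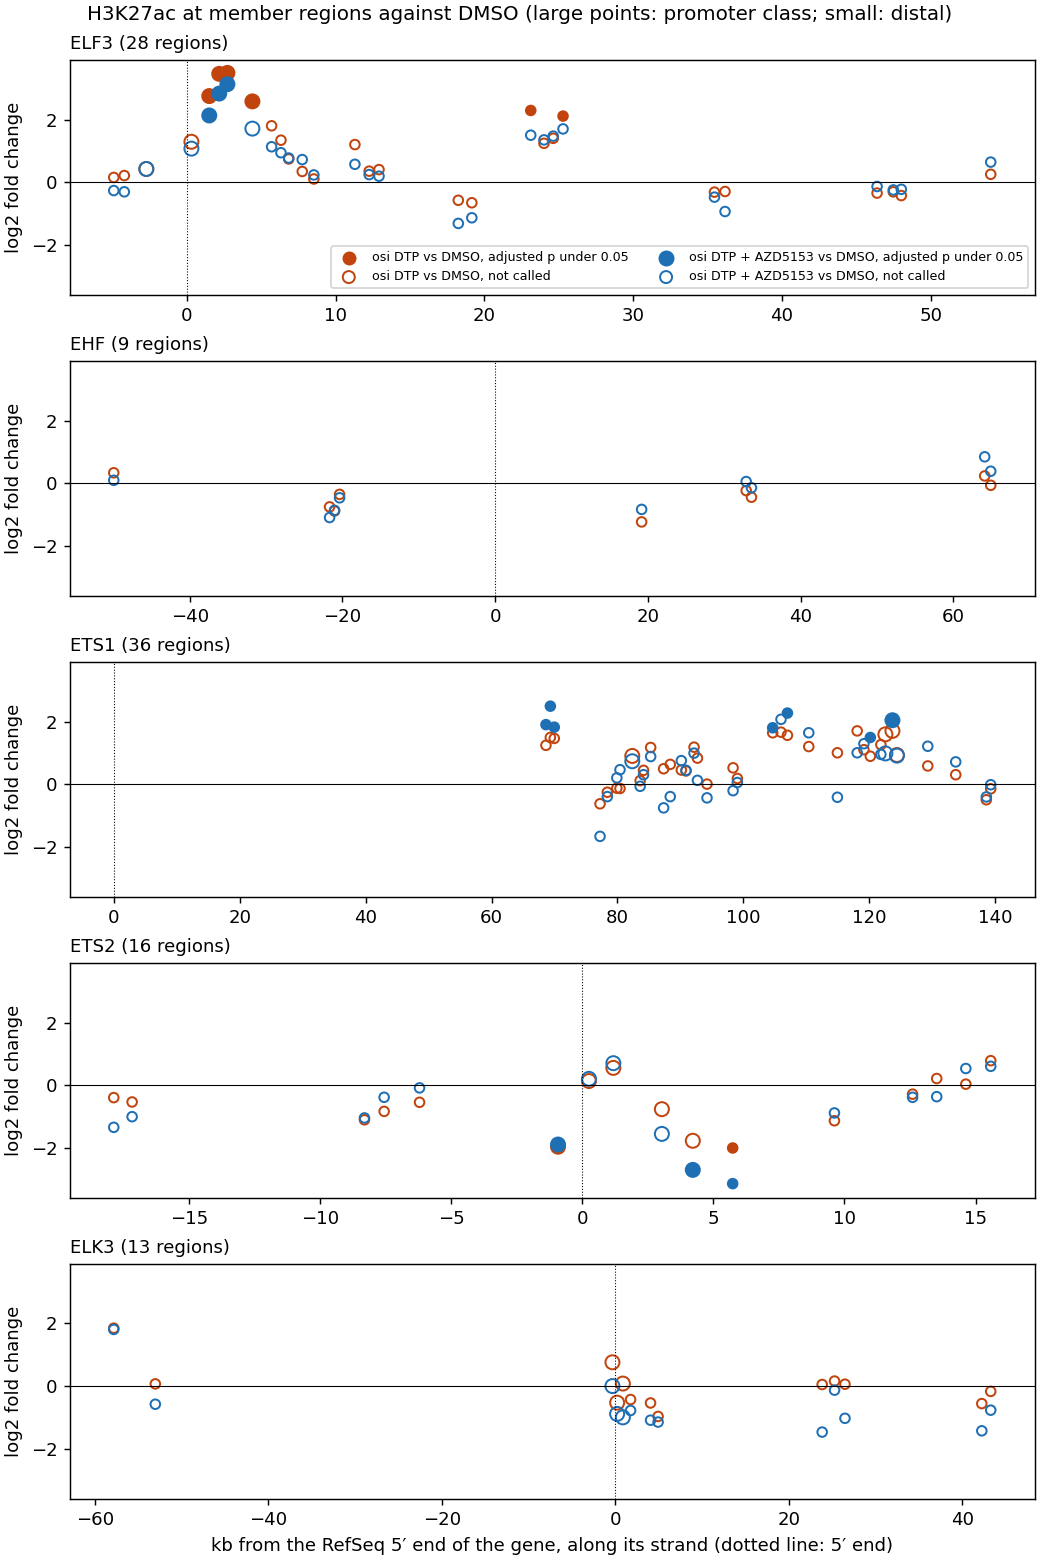
Log2 fold change of each of the 102 member regions against DMSO (vertical axis) by distance in kb from the RefSeq 5′ end along the gene (horizontal axis); orange is osi_DTP, blue is osi_DTP_AZD5153, filled points have an adjusted p under 0.05 and large points are promoter regions. The filled ELF3 points lie at 1.5 to 4.4 kb and at 23.11 and 25.28 kb, and the filled ETS2 points on both sides of a start whose own regions were not called.

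At ELF3, an epithelial activator, acetylation rose at regions over the body of the gene. Regions 5 to 8 lay 1.5 to 4.4 kb downstream of the 5′ end (chr1:202011841-202015234) and were annotated as promoters because each lay within 1 kb of the start of an assigned transcript. Region 6 measured 1.89, 2.56 and 4.18 CPM in DMSO replicates 1 to 3. It measured 11.1, 53.4 and 31.0 CPM in osi_DTP and 4.97, 13.8 and 43.1 CPM in osi_DTP_AZD5153. All 6 treated libraries were above all DMSO libraries, with a spread of almost an order of magnitude within osi_DTP_AZD5153. The highest values of the treated groups came from osi_DTP replicate 2 and osi_DTP_AZD5153 replicate 3, the libraries with the largest promoter shares. The level in osi_DTP was 11.02-fold that in DMSO (log2 fold change 3.46 ± 0.79 SE, adjusted p = 0.012), and in osi_DTP_AZD5153 it was 7.115-fold (2.83 ± 0.77, adjusted p = 0.0183).

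ELF3 region 7, directly downstream, behaved in the same manner. It measured 1.08, 1.33 and 4.08 CPM in DMSO, 7.58, 37.9 and 27.96 CPM in osi_DTP, and 4.47, 11.1 and 41.8 CPM in osi_DTP_AZD5153. The groups treated with osimertinib again did not overlap DMSO, and their highest values were again those of osi_DTP replicate 2 and osi_DTP_AZD5153 replicate 3. The log2 fold change was 3.49 ± 0.85 in osi_DTP (adjusted p = 0.0167) and 3.13 ± 0.84 in osi_DTP_AZD5153 (adjusted p = 0.0176). Without osi_DTP_AZD5153 replicate 3, the changes in that group were 1.70 at region 6 and 1.83 at region 7, and they remained called (adjusted p = 0.0273 and 0.0264). Without DMSO replicate 1 or without DMSO replicate 2, neither region was called in either group (edgeR adjusted p between 0.0606 and 0.113). Without osi_DTP replicate 2, neither was called in osi_DTP (2.92 at region 6 and 3.08 at region 7, edgeR adjusted p = 0.0643 and 0.0788). Region 5 rose by 2.75 and 2.13 on the log2 scale in the 2 groups (adjusted p = 0.0145 and 0.0289). Region 8 rose by 2.58 in osi_DTP (adjusted p = 0.0181), and its value in osi_DTP_AZD5153 was 1.71 (adjusted p = 0.0701).

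The ELF3 promoter region with the highest mean level was region 3, which lay 2.73 kb upstream of the 5′ end. It measured 20.3, 49.3 and 38.1 CPM in DMSO, 30.0, 57.7 and 56.2 CPM in osi_DTP, and 39.7, 71.8 and 32.4 CPM in osi_DTP_AZD5153. These ranges overlapped, although osi_DTP was above DMSO at each replicate number. The log2 fold change in osi_DTP was 0.42 (95% interval -0.68 to 1.51, adjusted p = 0.684). Whether it differed from regions 5 to 8 was not tested. Region 4, just inside the 5′ end, had 7.73 to 19.8 CPM in DMSO and 16.7 to 49.0 CPM in osi_DTP (2.441-fold, adjusted p = 0.148).

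Of the 22 distal ELF3 regions, 2 were called higher in osi_DTP (9.09%, close to the 9.35% of all annotated distal regions). They were regions 19 and 22, which lay 23.11 and 25.28 kb from the 5′ end (chr1:202033446-202033947 and chr1:202035615-202036116). Region 19 rose by 2.29 (adjusted p = 0.0469) and region 22 by 2.11 on the log2 scale (adjusted p = 0.0445). With the replicate number as a block, region 22 was no longer called (adjusted p = 0.0554). When single libraries were removed, region 19 lost its call in 6 of 9 cases and region 22 in 5 of 9. Both lost it with library size without TMM (adjusted p = 0.072 and 0.0684), and region 19 also with a loess offset (adjusted p = 0.055). Regions 20 and 21 between them had 1.24 and 1.40 (adjusted p = 0.155 and 0.137). The strongest distal region, region 12, lay 7.75 kb from the 5′ end, beyond the 3′ end of the gene. It measured 11.5, 28.1 and 26.4 CPM in DMSO, 10.1, 54.0 and 19.8 CPM in osi_DTP, and 17.4, 36.9 and 54.4 CPM in osi_DTP_AZD5153. The 3 groups overlapped throughout, and its adjusted p was 0.801 in osi_DTP and 0.476 in osi_DTP_AZD5153.

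EHF, the other epithelial member, had no annotated region within 1 kb of a start, so it was represented by distal regions alone, from chr11:34570907 upstream of the gene to 64.89 kb downstream of its 5′ end. Its strongest region, region 7 (chr11:34654406-34654907, intronic), measured 22.3, 19.5 and 8.26 CPM in DMSO. It measured 15.6, 13.4 and 7.69 CPM in osi_DTP and 24.6, 18.1 and 2.11 CPM in osi_DTP_AZD5153. The groups overlapped, and the lowest of the 9 values came from osi_DTP_AZD5153 replicate 3. The log2 fold change was -0.45 in osi_DTP (95% interval -1.90 to 1.00) and -0.15 in osi_DTP_AZD5153 (-1.60 to 1.30). Without that replicate the second value was 0.35. No EHF region had an unadjusted p under 0.05 in any of the 3 comparisons, and DESeq2 also called none.

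ETS1 had the largest number of regions, and they lay between 68.64 and 139.28 kb from the RefSeq 5′ end of the gene, which is on the minus strand. The 4 promoter regions lay at starts inside the gene. Within the gene bounds, 25 regions without annotation and 6 annotated to another gene are not described here. Relative to DMSO, 29 of the 36 regions were above 0 in osi_DTP, with a median log2 fold change of 0.86. In 16 of the 36, all osi_DTP libraries were above all DMSO libraries, and the share of all regions that did so was not counted. None passed the threshold by edgeR, where 10 had an unadjusted p under 0.05, beside 40895 of all 157919 regions tested. DESeq2 called 2 higher. The smallest adjusted p was 0.0507. Without osi_DTP_AZD5153 replicate 3, which does not belong to this comparison but enters the shared estimate of the spread, 11 of the 36 were called. In osi_DTP_AZD5153, 7 regions rose (19.4% of the ETS1 regions, against 9.05% of all and 10.7% of annotated regions), at adjusted p between 0.00971 and 0.0432. When single libraries were removed in turn, each of the 7 lost its call in 2 to 8 of 9 cases.

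The ETS1 calls lay in 3 stretches of the gene. Regions 34, 35 and 36 (chr11:128517348-128519165) were neighbours within introns. Region 35, named for the smallest adjusted p after the values had been seen, measured 2.43, 1.33 and 1.20 CPM in DMSO. It measured 4.74, 3.86 and 5.39 CPM in osi_DTP and 13.5, 10.3 and 4.22 CPM in osi_DTP_AZD5153. Every treated value was above every DMSO value, and 2 of the 3 AZD5153 values were also above all osi_DTP values. The log2 fold change in osi_DTP_AZD5153 was 2.49 ± 0.60 (5.63-fold, adjusted p = 0.00971), and that in osi_DTP was 1.49 ± 0.59 (adjusted p = 0.114).

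Regions 14 and 16 formed the second stretch. ETS1 region 16 (chr11:128482659-128483160, intronic) measured 7.64, 3.58 and 3.78 CPM in DMSO. It measured 22.4, 12.7 and 11.8 CPM in osi_DTP and 25.8, 14.3 and 12.1 CPM in osi_DTP_AZD5153. Replicate 1 was the highest of each group, and both treated groups stood above DMSO. The log2 fold change was 1.64 ± 0.57 in osi_DTP (adjusted p = 0.0732, and 0.0434 with the replicate number as a block) and 1.80 ± 0.58 in osi_DTP_AZD5153 (adjusted p = 0.0377).

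The third stretch held regions 6 and 9. Region 6 (chr11:128463640-128464141), a promoter region at an internal start, measured 2.52, 1.64 and 1.294 CPM in DMSO. It measured 4.46, 6.06 and 7.39 CPM in osi_DTP and 5.96, 14.5 and 1.92 CPM in osi_DTP_AZD5153. The AZD5153 group overlapped DMSO through replicate 3 alone. The log2 fold change was 1.70 ± 0.66 in osi_DTP (adjusted p = 0.108) and 2.04 ± 0.67 in osi_DTP_AZD5153 (adjusted p = 0.0421), and the latter call was lost in 8 of 9 cases when single libraries were removed. Without osi_DTP_AZD5153 replicate 2 it was 1.14 (adjusted p = 0.268), whereas removing replicate 3 gave 2.47 (adjusted p = 0.00069).

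The strongest ETS1 region of either class was not called. Region 23, the distal region with the highest mean, measured 21.9, 28.1 and 17.6 CPM in DMSO, 26.9, 40.2 and 25.6 CPM in osi_DTP, and 45.0, 50.3 and 18.01 CPM in osi_DTP_AZD5153. Region 7, the promoter region with the highest mean, measured 3.24, 1.13 and 3.68 CPM in DMSO, 5.69, 5.51 and 13.1 CPM in osi_DTP, and 3.68, 9.11 and 3.07 CPM in osi_DTP_AZD5153. In region 7 the osi_DTP values were all above DMSO, whereas the AZD5153 values overlapped both. The log2 fold changes in osi_DTP were 0.45 at region 23 (adjusted p = 0.648) and 1.59 at region 7 (adjusted p = 0.12). Region 7 was called there without osi_DTP_AZD5153 replicate 3 (adjusted p = 0.0231) and with the libraries of osi_DTP and DMSO only (adjusted p = 0.0136).

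At ETS2, the close relative of ETS1, acetylation fell at regions on both sides of the start. Region 6, a promoter region 0.92 kb upstream (chr21:38804009-38804510), measured 5.22, 7.48 and 7.47 CPM in DMSO. It measured 1.90, 1.52 and 1.70 CPM in osi_DTP and 1.39, 1.73 and 2.30 CPM in osi_DTP_AZD5153. All 6 treated values were under every DMSO value and close to each other. It fell by 1.97 ± 0.55 on the log2 scale in osi_DTP (adjusted p = 0.029) and by 1.90 ± 0.55 in osi_DTP_AZD5153 (adjusted p = 0.0239). When single libraries were removed, the first call was lost in 6 of 9 cases and the second in 4 of 9.

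ETS2 region 11, 5.74 kb downstream of the 5′ end (chr21:38810669-38811170), measured 7.10, 9.11 and 5.87 CPM in DMSO. It measured 2.47, 1.38 and 1.60 CPM in osi_DTP and 1.49, 0.461 and 0.383 CPM in osi_DTP_AZD5153. DMSO stood above both treated groups, which overlapped each other through osi_DTP_AZD5153 replicate 1. The region fell by 2.01 ± 0.60 in osi_DTP (adjusted p = 0.041) and by 3.15 ± 0.65 in osi_DTP_AZD5153 (adjusted p = 0.00443). Its call in osi_DTP was lost in 6 of 9 cases when single libraries were removed. It was also lost with library size without TMM (adjusted p = 0.0682). Region 10, the promoter region before it, named because it is the remaining ETS2 call, had 4.68 to 5.67 CPM in DMSO, 0.964 to 2.18 CPM in osi_DTP and 0.461 to 1.291 CPM in osi_DTP_AZD5153. It fell by 2.71 ± 0.64 in osi_DTP_AZD5153 (adjusted p = 0.00884), and its value in osi_DTP was -1.78 ± 0.60 (adjusted p = 0.0634).

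The regions at the ETS2 start were not called, and whether they differed from the regions beside them was not tested. Region 8, the strongest promoter region, measured 19.3, 17 and 17.2 CPM in DMSO, 15.6, 49.9 and 12.9 CPM in osi_DTP, and 11.6, 10.96 and 65.0 CPM in osi_DTP_AZD5153. Its high values came from osi_DTP replicate 2 and osi_DTP_AZD5153 replicate 3, the libraries with the largest promoter shares, and the other treated values were under DMSO. Without that AZD5153 replicate its log2 fold change in osi_DTP_AZD5153 was -0.67 in place of 0.70. Region 2, the strongest distal region, measured 22.3, 34.8 and 24.8 CPM in DMSO, 16.9, 20.8 and 18.6 CPM in osi_DTP, and 15.7, 21.0 and 3.83 CPM in osi_DTP_AZD5153. DMSO did not overlap either treated group there, but the adjusted p was 0.618 and 0.249. Over the 16 ETS2 regions, 7 had all osi_DTP values under DMSO and none had them all above. The share of all regions with such a separation was not counted, so these numbers have no background beside them.

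**Figure D2:**
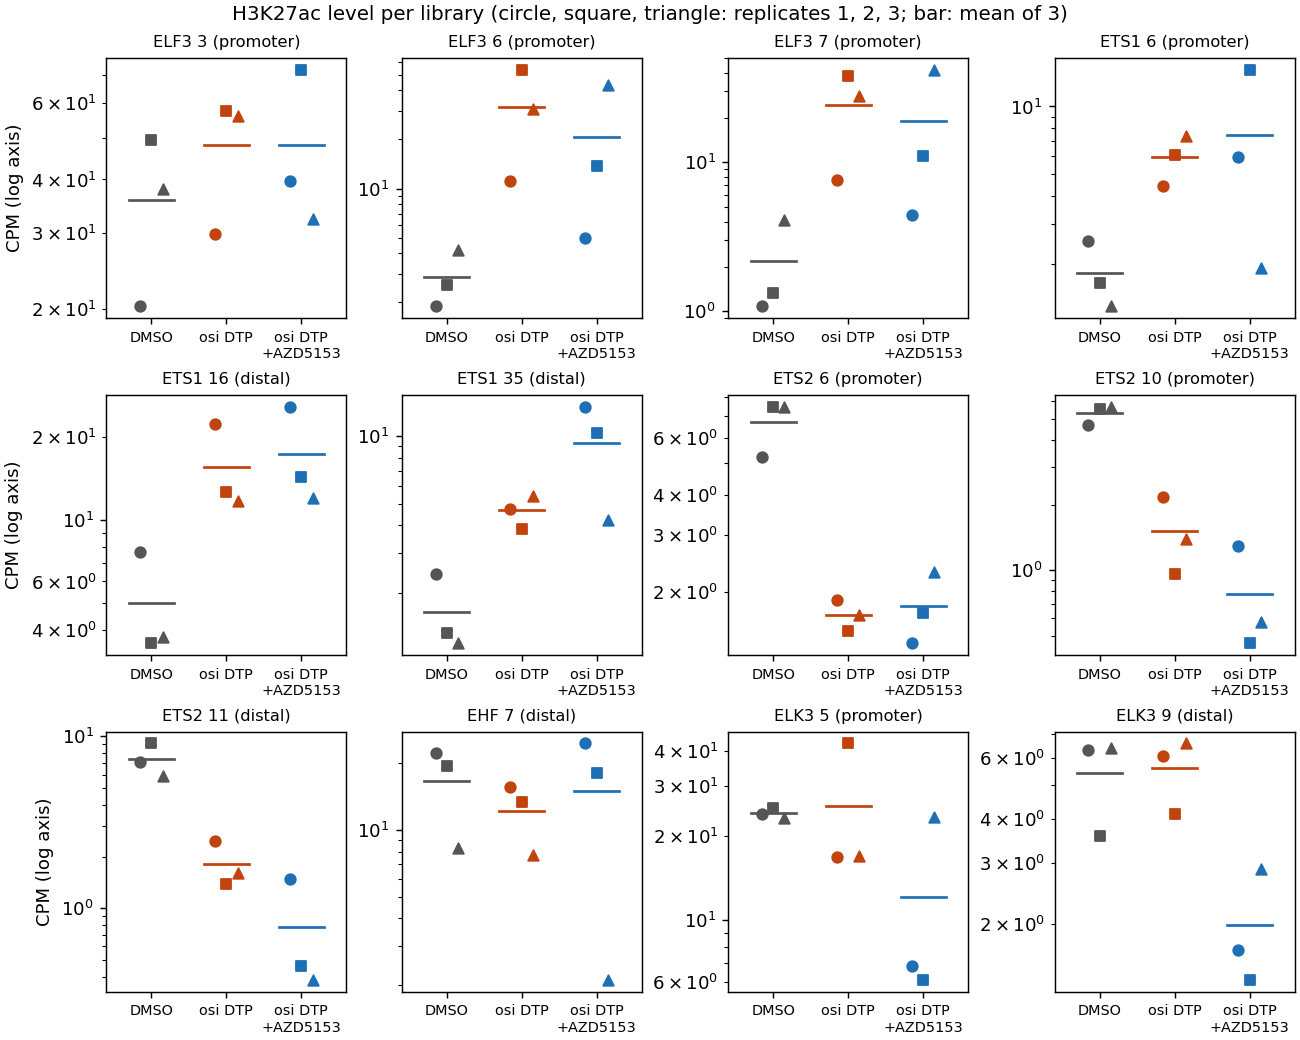
H3K27ac level in CPM on a log axis at 12 member regions, 1 point per library (circle, square and triangle for replicates 1 to 3) with the mean of each group as a bar. ELF3 regions 6 and 7 and ETS1 regions 16 and 35 stood above DMSO in all 6 treated libraries, ETS2 regions 6, 10 and 11 stood below it, and ELF3 region 3 and EHF region 7 overlapped.

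At ELK3, the ternary complex factor, no single region was called, and low values lay mostly in libraries with AZD5153. The strongest promoter region, region 5 (chr12:96194999-96195500), measured 23.9, 25.1 and 23.1 CPM in DMSO. It measured 16.8, 42.7 and 16.97 CPM in osi_DTP and 6.85, 6.11 and 23.4 CPM in osi_DTP_AZD5153. Replicates 1 and 2 with AZD5153 were below all other libraries, and replicate 3 was at the level of DMSO. The level in osi_DTP_AZD5153 was 0.5004-fold that in DMSO (95% interval of the log2 fold change -2.28 to 0.28, adjusted p = 0.277), and without replicate 3 the log2 fold change was -1.90 (adjusted p = 0.00678).

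The strongest distal region, ELK3 region 10 in an intron, measured 25.0, 36.8 and 25.9 CPM in DMSO, 25.4, 42.7 and 30.2 CPM in osi_DTP, and 28.2, 36.9 and 14.6 CPM in osi_DTP_AZD5153. Its groups overlapped (log2 fold change 0.16 and -0.13 relative to DMSO). All 13 ELK3 regions had a log2 fold change under 0 in osi_DTP_AZD5153 relative to osi_DTP, with a median of -0.60, beside 0.06 over all regions. None of the 13 was called by edgeR or DESeq2, and 1 had an unadjusted p under 0.05. That was region 9, chosen after the values had been seen, with 6.07, 4.13 and 6.59 CPM in osi_DTP and 1.69, 1.38 and 2.88 CPM in osi_DTP_AZD5153. Without replicate 3, 11 of the 13 were under 0, with a median of -0.41.

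Counts were also summed per gene over its promoter regions and, separately, over its distal regions, and each class was scaled among all genes of that class. The share of 12295 genes whose promoter sum was called higher and lower was 2.8% and 3.35% in osi_DTP, and 6.89% and 7.04% in osi_DTP_AZD5153. For the distal sums of 9382 genes these shares were 15.6% and 14.9%, and 20.8% and 18.6%. Of the 9 member sums, none passed in osi_DTP by edgeR, and the sums with an unadjusted p under 0.05 were the ELF3 promoter sum and the ETS1 distal sum. DESeq2 called the first of these. The ELF3 promoter sum was 121, 204 and 247 CPM in DMSO and 292, 359 and 801 CPM in osi_DTP, and its groups did not overlap (1.34 ± 0.41, adjusted p = 0.0887, and 0.0482 without osi_DTP_AZD5153 replicate 3). Its distal sum had a log2 fold change of 0.40 ± 0.44 in osi_DTP (adjusted p = 0.529).

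In osi_DTP_AZD5153, the ETS1 distal sum rose and the ELK3 promoter sum fell relative to DMSO. The ETS1 distal sum was 699, 516 and 531 CPM in DMSO, 982, 743 and 862 CPM in osi_DTP, and 1001, 888 and 954.5 CPM in osi_DTP_AZD5153. By scaling within the distal class, the treated libraries were all above DMSO. For osi_DTP_AZD5153 replicate 3, with 66.7% of its annotated counts in promoters, that position rests on this scaling. The sum was not computed with the scaling of single regions. The log2 fold change was 0.57 ± 0.22 in osi_DTP (adjusted p = 0.0724) and 0.70 ± 0.22 in osi_DTP_AZD5153 (adjusted p = 0.0264). That call was lost with a loess offset (0.35, adjusted p = 0.261), with library size without TMM (0.50, adjusted p = 0.141), with the libraries of both groups only (0.74, adjusted p = 0.0568) and in 4 of 9 cases when single libraries were removed (0.62 to 0.69). The ELK3 promoter sum was 124, 91.4 and 111 CPM in DMSO, 84.5, 90.3 and 89.3 CPM in osi_DTP, and 33.7, 28.1 and 59.8 CPM in osi_DTP_AZD5153. The AZD5153 values were below all others, and the sum fell by 1.42 ± 0.28 relative to DMSO (adjusted p = 0.0111). The ELK3 distal sum was 251 to 276 CPM in DMSO, 245 to 253 CPM in osi_DTP and 172 to 188 CPM in osi_DTP_AZD5153, which did not overlap (-0.54 ± 0.22 relative to DMSO, adjusted p = 0.0727). It was called with the loess offset (-0.70, adjusted p = 0.0329) and with library size without TMM (-0.73, adjusted p = 0.0389).

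The ETS1 promoter sum was 18.9 to 43.3 CPM in DMSO, 29.9 to 136 CPM in osi_DTP and 20.1 to 106 CPM in osi_DTP_AZD5153, so its groups overlapped. The ETS2 promoter sum was 172 to 198 CPM in DMSO, 120 to 148 CPM in osi_DTP and 104, 100.1 and 171 CPM in osi_DTP_AZD5153, the highest being replicate 3. Its log2 fold change was -0.45 ± 0.22 in osi_DTP (adjusted p = 0.28) and -0.55 ± 0.22 in osi_DTP_AZD5153 (adjusted p = 0.125, and 0.00588 without replicate 3). The ETS2 distal sum (-0.35 ± 0.25, adjusted p = 0.326) and the EHF distal sum (-0.30 ± 0.42, adjusted p = 0.625) were not called in osi_DTP.

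**Figure D3:**
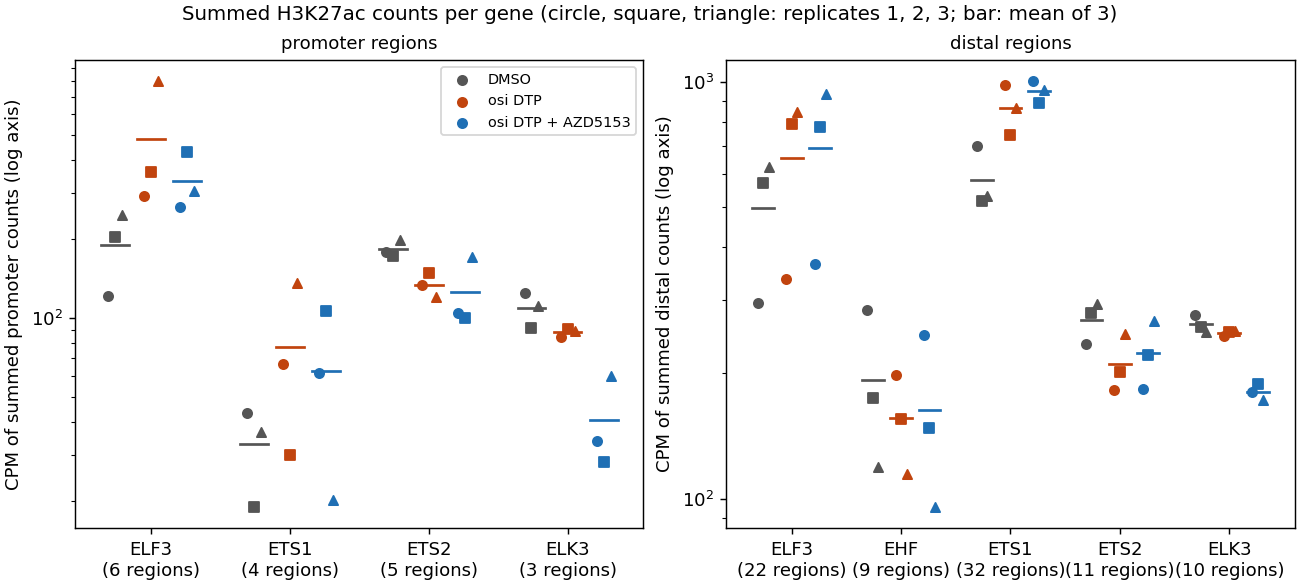
Summed promoter counts (left) and summed distal counts (right) per gene in CPM on a log axis, 1 point per library with the mean of each group as a bar; grey is DMSO, orange osi_DTP and blue osi_DTP_AZD5153. As scaled within each class, the ETS1 distal sums of both treated groups lie above DMSO, and the blue ELK3 points lie under the others in both panels.

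As labelled, osi_DTP_AZD5153 and osi_DTP differed by 3 days of AZD5153 and by 21 against 24 days of osimertinib. These 2 differences cannot be told apart. The comparison of the 2 groups gave no call at any of the 157919 regions by edgeR (0.0% higher, 0.0% lower), where 7011 had an unadjusted p under 0.05. DESeq2 called 18 regions higher and 68 lower. Among the 102 member regions 2 had an unadjusted p under 0.05 and DESeq2 called 0. No sum was called either (0.0% of the promoter and 0.0% of the distal sums), and the ELK3 promoter sum was the only member sum with an unadjusted p under 0.05 by edgeR. That sum had a log2 fold change of -1.12 (95% interval -1.73 to -0.50, adjusted p = 0.354), DESeq2 called it, and without replicate 3 edgeR gave -1.51 (adjusted p = 0.0127). At ELF3 region 6 the log2 fold change was -0.63 (95% interval -2.13 to 0.87) and at ETS2 region 11 it was -1.15 (-2.51 to 0.21), so these data do not separate the groups treated with osimertinib there.

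The peak lists that the authors called for each library gave another view of the same reads. They held 54188 to 70227 peaks, and the share of all annotated regions with a peak was not counted. A peak overlapped 29, 18 and 22 of the 36 ETS1 regions in DMSO, 36, 33 and 36 in osi_DTP, and 34, 32 and 24 in osi_DTP_AZD5153. At ETS2, all 16 regions had a peak in each DMSO library, against 12, 11 and 12 in osi_DTP and 13, 11 and 9 in osi_DTP_AZD5153. ELF3 had peaks at 14, 20 and 26 of its 28 regions in DMSO and at 25 to 28 in the treated libraries. At ELF3 region 7 there was no peak in DMSO replicates 1 and 2, whereas DMSO replicate 3 and all 6 treated libraries had one. In some libraries 1 broad peak covered several ELF3 regions. ELK3 had peaks at 12 of 13 regions in each DMSO library, at 13 in each osi_DTP library and at 11, 10 and 8 with AZD5153. EHF had 8 or 9 of 9 in DMSO, 7 or 8 in osi_DTP, and 9, 8 and 2 in osi_DTP_AZD5153. Within osi_DTP_AZD5153, replicate 3 had the lowest count at every member, most clearly at EHF and ETS1. At ETS1 its 24 regions were still more than the 18 and 22 of DMSO replicates 2 and 3. At ETS2 and ELK3, AZD5153 replicates 1 and 2 were also below every DMSO library.

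**Figure D4:**
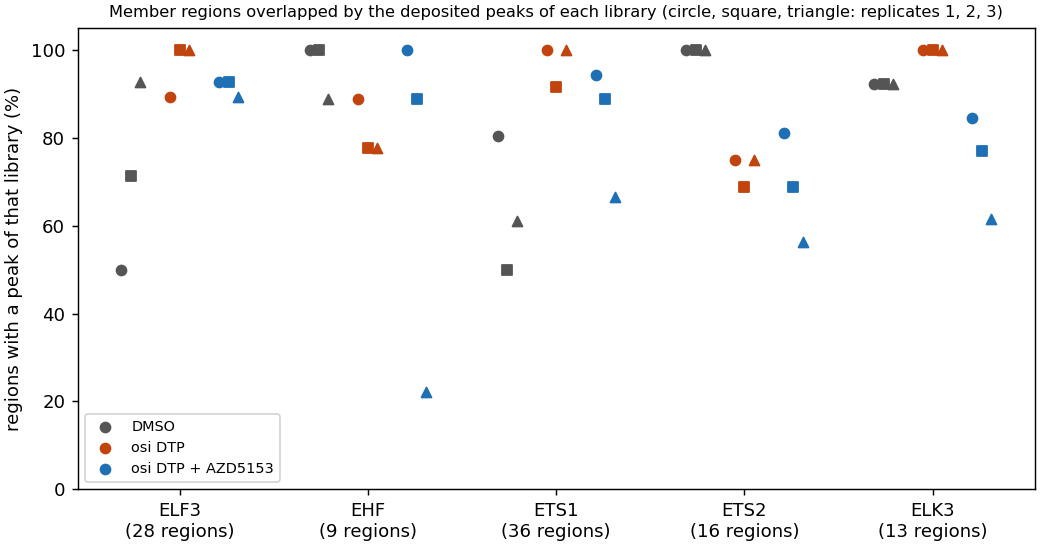
Share of the regions of each member, in percent, that were overlapped by a peak from the list of the same library, 1 point per library. ETS2 stands at all of its 16 regions in DMSO and at 12 or fewer in osi_DTP, and the single EHF point near the bottom is osi_DTP_AZD5153 replicate 3, with 2 of 9.

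The genes whose summed distal level most resembled each member across the 9 libraries were found by Pearson correlation of log2(CPM + 1) over 4954 genes with at least 3 distal regions. For ELF3 they were PLAUR (r = 0.972), C12orf80 (0.966) and KRT7 (0.944), and for EHF they were BMPER (0.942), ZNF385D (0.919) and MIR4711 (0.906). COL14A1, NEK10 and NFYB were nearest to ETS1 (0.978, 0.977 and 0.976), STMN1, FAM178B and HK2 to ETS2 (0.983, 0.954 and 0.947), and SLCO3A1, ACTR2 and ZNF582 to ELK3 (0.976, 0.952 and 0.949). These values describe the 9 shared libraries, 1 of which stood apart, and carry no test.

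Of 23 other ETS genes, 16 had annotated regions, 70 in all. In osi_DTP 3 of these regions rose (4.29%) and 8 fell (11.4%), and in osi_DTP_AZD5153 3 rose and 11 fell, beside the shares of annotated regions given above. Their median log2 fold change was 0.03 and -0.13. By distal sum, ETV7 rose by 3.93 (adjusted p = 0.00314) from a single region, whereas ETV1, a PEA3 group factor, fell by 1.84 (adjusted p = 0.0115) and ELF5, another epithelial ETS factor with a single distal region, fell by 1.55 (adjusted p = 0.0245) in osi_DTP.

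A list of 16 epithelial and tight junction genes that background knowledge links with ELF3 or EHF had 14 genes with regions. Of their 150 regions, 4 rose (2.67%, against 6.98% of annotated regions) and 19 fell (12.7%, against 7.22%) in osi_DTP. In osi_DTP_AZD5153, 6 rose (4.0%, against 10.7%) and 29 fell (19.3%, against 11.1%). The median log2 fold change was -0.20 and -0.62. Of the 96 distal regions, 18 fell in osi_DTP (18.8%, against 10.2% of annotated distal regions) and 28 in osi_DTP_AZD5153 (29.2%, against 15.5%). Of the 54 promoter regions, 1 rose and 1 fell in each group, with a median of 0.19 in osi_DTP and -0.18 in osi_DTP_AZD5153. CLDN7 and CLDN3 encode claudins of tight junctions. In osi_DTP their distal sums, of 2 regions and 1 region, fell by 2.58 (adjusted p = 0.00439) and by 2.01 (adjusted p = 0.0193). That of EPCAM, an epithelial adhesion molecule, fell by 1.33 (adjusted p = 0.00599). The CLDN3 promoter sum, also of 1 region, had 1.16 there (adjusted p = 0.12), with all values above DMSO. The promoter sums of CLDN7 and EPCAM had -0.15 and 0.18 (adjusted p = 0.881 and 0.731). Of the 12 distal sums of this list, 0 were called higher and 5 lower in osi_DTP, and 1 higher and 6 lower in osi_DTP_AZD5153. The 1 that rose was KRT18, a keratin, named after its values had been seen (1.44, adjusted p = 0.00847), and in osi_DTP it had 0.99 (adjusted p = 0.0521), with all values above DMSO. A list of 10 genes of invasion and matrix turnover, linked with ETS1, ETS2 or ELK3, had 9 genes with regions. Of their 114 regions, 3 rose (2.63%) and 13 fell (11.4%) in osi_DTP, and 3 rose (2.63%) and 14 fell (12.3%) in osi_DTP_AZD5153, beside the same shares of annotated regions. Their median was -0.33 and -0.32. The distal sums of ITGB6, an integrin subunit, and HMOX1, heme oxygenase, fell by 1.62 (adjusted p = 0.00102) and by 1.12 (adjusted p = 0.033). These lists carry no test of their own.

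Markers of other cell types were read at promoters. Of 4 fibroblast markers (COL1A1, COL1A2, DCN and PDGFRB), 3 had promoter regions and DCN had none. Their summed level was 45.2 to 106 CPM in DMSO, 176 to 228 CPM in osi_DTP and 166 to 308.5 CPM in osi_DTP_AZD5153, so it moved in the direction of the ELF3 and ETS1 regions. Neither of the blood markers PTPRC and CD3E had a promoter region, and of the endothelial markers only CDH5 did, with 36.0 to 110.3 CPM in DMSO and 37.4 to 147 CPM in the treated libraries. The part of these markers in the results above was not tested.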

How the data were processed

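H3K27ac ChIP-seq was analysed in 9 libraries and 1 pooled input. The authors deposited raw read counts per region of 502 bp, with no normalization, for all libraries, and the same counts with gene symbol and annotation class for part of the regions; the rule that selected these was not given in the sources used here. They also deposited 1 peak list per library, with fold enrichment as a ratio over background and p and q as −log10 values. The submitters' processing notes name BWA 0.7.17, MACS2 2.2.6, featureCounts 2.0.0, ChIPseeker 1.29.1 and hg38, and whether duplicates were removed was not given. The list of osi_DTP replicate 3 is filed under another cell line name, and like every other list it correlated best with its own count column. There were 0 columns of other samples.

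The whole table was filtered with filterByExpr (minimum count 10) and fitted in R 4.3.3 with edgeR 4.0.16 and limma 3.58.1: TMM scaling, 1 mean per group over all 9 libraries, robust quasi-likelihood test, Benjamini-Hochberg adjustment and a threshold of 0.05. The step was tested on simulated data. SE and 95% intervals come from the quasi-likelihood F. P-values weigh the difference between group means against the spread between these replicates, which was estimated over all 9 libraries together. The input had 1870885 counts (median 10 per region, at most 24 in a member region) and was not subtracted. Member counts ranged from 1 to 622 per library, so low regions rest on few reads. Promoter regions are those annotated within 1 kb of a start, and all others are called distal.

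The members and lists were chosen with earlier results of these data known. Regions given in full were, per member, the promoter and the distal region with the highest mean level and, of those called against DMSO, the 2 with the largest rise and the 2 with the largest fall in osi_DTP. Of each list, the 3 genes with the largest change of a called distal sum were named (2 passed in the invasion list). Tests were repeated without each library in turn, with a replicate block, with a stricter threshold, without the filter, on the annotated regions alone, on the libraries of both groups only, with a loess offset, with library size without TMM and in DESeq2 1.42.0. Sums were also made from distal regions over 3 kb from a start and with overlapping regions counted once. Libraries of the same number in osi_DTP and DMSO deviated from their group means with a correlation of 0.334, 0.355 and 0.324, so the numbers were taken as paired there. The p-values come from fits without this pairing unless the replicate block is named. The numbers were not taken as paired between osi_DTP_AZD5153 and DMSO (-0.018, 0.553 and 0.362) or osi_DTP (0.243, 0.026 and -0.24). GC content was measured for the RefSeq promoters alone. One marker gene of the lists is not reported here.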

Additional observations from a re-analysis of the deposited data

How the results depend on the processing

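Leaving out 1 library at a time moved the counts of called member regions in both directions. In osi_DTP relative to DMSO, the 6 regions called higher ranged from 0 to 23 and the 2 called lower from 0 to 4, with no call at all without DMSO replicate 1, DMSO replicate 2 or osi_DTP replicate 2. In osi_DTP_AZD5153 relative to DMSO, the 10 called higher ranged from 0 (without DMSO replicate 2) to 20 and the 3 called lower from 2 to 12. All upper ends came from leaving out osi_DTP_AZD5153 replicate 3. ETS2 regions 10 and 11 stayed called in osi_DTP_AZD5153 in all 9 of these fits. Member sums called ranged from 0 to 1 for promoters in osi_DTP and between the treated groups, from 1 to 2 for promoters in osi_DTP_AZD5153, from 0 to 1 for distal regions in osi_DTP and from 0 to 2 for them in osi_DTP_AZD5153.

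At an adjusted p under 0.01, 0 regions were higher and 0 lower in osi_DTP, 1 was higher and 2 were lower in osi_DTP_AZD5153, and 0 promoter and 0 distal sums were called in the latter. With library size without TMM, 1 region was lower in osi_DTP and 5 were higher in osi_DTP_AZD5153. DESeq2 called 16 higher and 6 lower in osi_DTP_AZD5153, 2 distal sums there, and 1 promoter sum each in osi_DTP and between the treated groups. With the libraries of both groups only, 22 regions were higher and 1 distal sum was called in osi_DTP, against 5 regions and 0 distal sums in osi_DTP_AZD5153. With distal regions over 3 kb from a start, 1 distal sum was called in osi_DTP. The cause of these differences was not tested. The replicate block ties all 9 libraries by number, including those of osi_DTP_AZD5153, which were not taken as paired. No block fit was made on osi_DTP and DMSO alone. With the block, 7 regions were higher and 3 lower in osi_DTP and 12 were higher and 3 lower in osi_DTP_AZD5153. Of the regions given with values, ELF3 region 22 and ETS1 region 16 changed their call in osi_DTP, and ETS1 region 6 lost its call in osi_DTP_AZD5153 (adjusted p = 0.0859).

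The log2 fold changes that turned sign were small and none was called. Over the fits without 1 library, those in osi_DTP ranged from -0.50 to 0.84 at ELF3 region 12, -0.27 to 0.96 at ETS2 region 8, -0.45 to 0.40 at ELK3 region 5, -0.01 to 0.42 at ELK3 region 10 and -0.55 to 0.09 for the EHF distal sum. Those in osi_DTP_AZD5153 ranged from -0.01 to 0.72 at ELF3 region 3, -0.70 to 0.35 at EHF region 7, -0.67 to 1.06 at ETS2 region 8, -0.45 to 0.15 at ELK3 region 10 and -0.66 to 0.16 for the EHF distal sum. The loess offset gave -0.07 at ELF3 region 12, -0.23 at ELK3 region 5 and -0.05 at ELK3 region 10 in osi_DTP. ELK3 region 5 had -0.10 there with library size without TMM, -0.03 with DESeq2 and -0.04 with the annotated regions alone. The libraries of both groups only gave 0.02 at EHF region 7 and 0.02 at ELK3 region 10 in osi_DTP_AZD5153, and distal regions over 3 kb from a start gave 0.04 for the ELK3 distal sum in osi_DTP. A peak −log10 q of at least 10 or a wider overlap between peak and region lowered 18 of the mean counts of regions with a peak by more than their spread.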
